A study of Mus musculus with 4 samples.

Results

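A set of 10 genes of EGF receptor signalling was followed in stem cells of the mouse small and large intestine, chosen by name from the 55487 genes of the deposited tables. All 10 were found and passed the filter on low counts: the ligand genes Areg and Ereg, the receptor genes Egfr, Erbb2 and Erbb3, the receptor inhibitor gene Lrig1, the feedback inhibitor genes Spry2 and Dusp6, and the ETS factor genes Etv4 and Etv5. Small-intestinal stem cells (SISC) were sorted from crypts as positive for the Lgr5-EGFP reporter and negative for CD24, from pieces near the pylorus and near the cecum. Large-intestinal stem cells (LISC) were sorted as reporter-positive, from cecum to rectum, with no CD24 gate named. The mice of both groups carried Lgr5-EGFP-IRES-creERT2, in which the stem cell gene Lgr5 drives the reporter and an inducible Cre, were 6 to 12 weeks old and received no treatment. Each group held 2 polyA RNA libraries. Whether these stem from different mice is not stated, so the p-values below reflect the scatter of these libraries alone, which may be technical. The comparison asked which genes differ between the stem cells of both intestines. The CD24 gate and the intestine cannot be told apart here.

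Ligands of the EGF family are made as membrane-bound precursors, are cut free by proteases and bind receptors of the ErbB family, which pair up and activate the RAS-ERK kinase cascade. The cascade switches on genes that in turn damp it, such as the Sprouty genes and the dual-specificity phosphatase genes, and it raises ETS factors of the PEA3 group, to which Etv4 and Etv5 belong. In intestinal crypts EGF is needed for stem cells to divide, and Lrig1 restrains ErbB signalling there.

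Total expected counts (reads assigned to genes by RSEM, which divides reads that match several genes) ran from 12795434 to 27227715 per library. A single nuclear rRNA gene took 24.1% of counts in SISC replicate 1 and 28.5% in LISC replicate 1, but 0.0917% and 0.0997% in replicate 2 of each group. Levels are therefore given mainly as CPM, with library sizes adjusted by TMM, which are comparable between libraries for 1 gene. TPM, which is also scaled by transcript length, serves to compare genes within a library. Lgr5 was read at 89.7 to 173 CPM in the 4 libraries, with overlapping groups. All 15 stem cell markers on the list had a negative log2 difference (median -0.66), and edgeR called Olfm4 (101-fold) and Tnfrsf19 (9.04-fold) higher in SISC. Their summed level was 9637 and 14725 CPM in SISC, mostly from Olfm4, against 1336 and 1129 CPM in LISC. Marker genes of other cell types were summed for each library. Paneth cell markers (10 genes, none at 0 throughout) came to 1397 and 9068 CPM in SISC, against 28.3 and 56.9 CPM in LISC, goblet and deep crypt secretory markers (9 genes, none at 0 throughout) to 470.2 and 2157 CPM against 3989 and 8504 CPM, and tuft markers (7 genes, none at 0 throughout) to 4.22 and 19.4 CPM against 71.2 and 115 CPM. Enterocyte and colonocyte markers (12 genes) came to 197 and 227 CPM against 413 and 1566 CPM, enteroendocrine markers (10 genes) to 37.4 and 191 CPM against 85.9 and 119 CPM, immune markers (11 genes, C1qb at 0 throughout) to 7.68 and 8.37 CPM against 13.5 and 41.7 CPM, and stromal and endothelial markers (10 genes, Lum at 0 throughout) to 1.25 and 4.95 CPM against 1.30 and 2.20 CPM. Proliferation markers (12 genes) overlapped between the groups, at 1958 and 2863 CPM against 1703 and 2595 CPM. In bulk RNA, fewer cells of a type and less RNA per cell cannot be told apart.

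Etv5 was the 1 member called, 11.7-fold higher in LISC. Across all 14165 genes tested with edgeR's quasi-likelihood test, 2.2% were called at an adjusted p below 0.05, 1.45% with the higher level in LISC and 0.741% with the higher level in SISC. None of the 10 members was called higher in SISC by edgeR, where 1 of them, Areg, had an unadjusted p below 0.05, nor by DESeq2. In either direction 4 members (Etv5, Etv4, Spry2 and Areg) had an unadjusted p below 0.05, as 13.4% of all genes tested did. Without regard to any test, 4 members (Etv5, Etv4, Spry2 and Dusp6) had both LISC libraries above both SISC libraries, a pattern shown by 21.9% of all genes tested. Areg and Erbb3 had both SISC libraries above both LISC libraries, as 18.4% of all genes tested did. In all, 6 of 10 members did not overlap between the groups, against 40.3% of all genes tested, and Ereg, Egfr, Erbb2 and Lrig1 overlapped. The median log2 difference was 0.26 over the members and -0.02 over all genes tested.

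**Figure D1:**
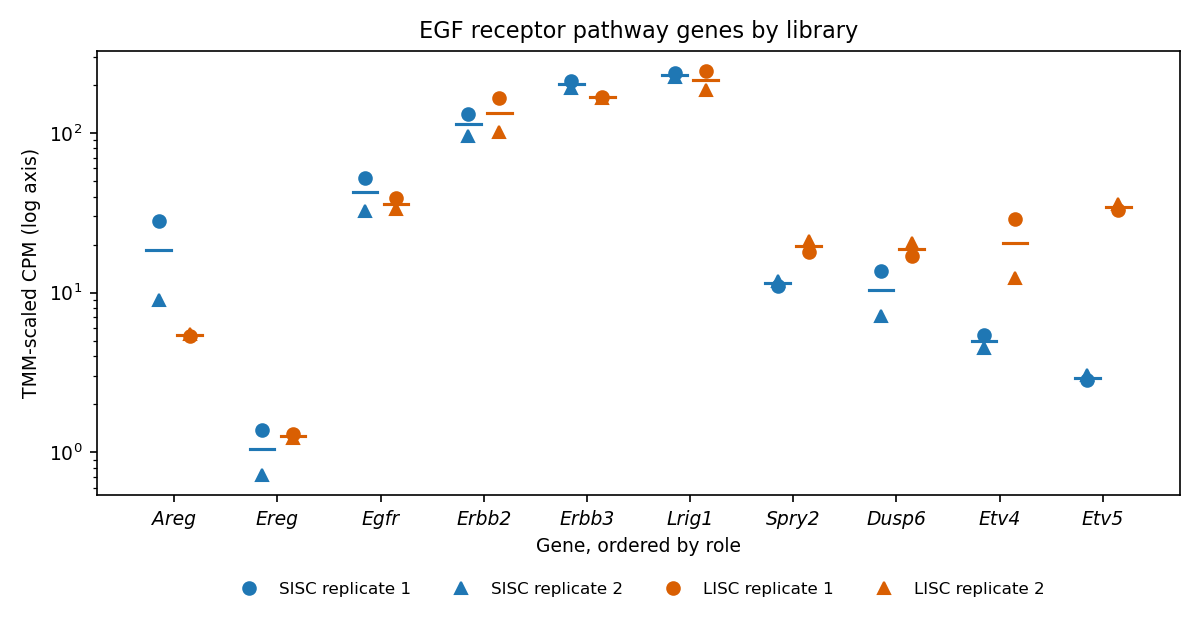
TMM-scaled CPM (log axis) of the 10 genes in each library, circles for replicate 1 and triangles for replicate 2, with lines at the group means. Etv5 and Etv4 stand higher in both LISC libraries, Areg is highest in SISC replicate 1, and the SISC and LISC points of Egfr, Erbb2 and Lrig1 overlap.

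**Figure D2:**
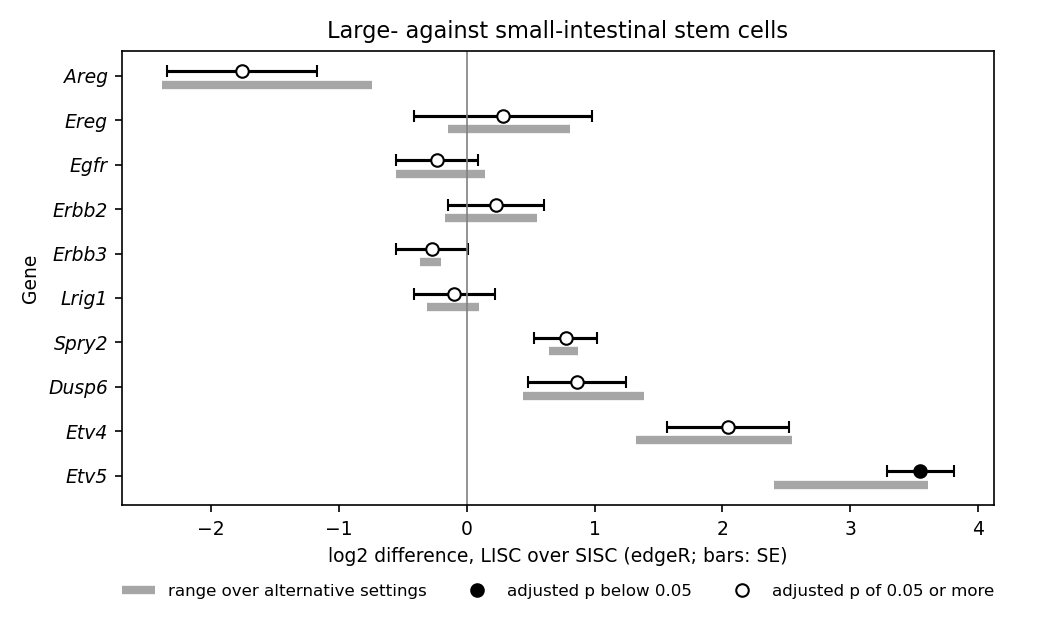
Log2 difference of LISC over SISC for each gene (points, with the standard error as error bars) and its range over the alternative settings (grey lines). Only Etv5, at 3.55, passed the adjusted threshold, and the 4 genes at the bottom, the feedback inhibitors and ETS factors, lie above 0 under every alternative run.

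Among the ligands, Areg encodes amphiregulin, a ligand of EGFR that is shed from the membrane. It was read at 28.0 and 9.06 CPM in SISC replicates 1 and 2 and at 5.37 and 5.53 CPM in LISC replicates 1 and 2. SISC replicate 1 thus stood 3.09-fold above its own replicate, while the LISC libraries differed by 1.03-fold. The log2 difference was -1.76 ± 0.59 (SE), which missed the threshold (edgeR adjusted p = 0.281). It was -2.38 within replicate 1 and -0.71 within replicate 2, each a difference between single libraries. Without SISC replicate 1 it was -0.74 (edgeR adjusted p = 0.659), and without SISC replicate 2 it was -2.38 and passed (edgeR adjusted p = 0.0320). With no filter on low counts Areg was also called (edgeR adjusted p = 0.000566, log2 -1.75, a setting that called 5.86% of genes), and over all 12 alternatives its adjusted p ran from 0.000566 to 0.662. The summed Paneth markers were also highest in SISC replicate 1, at 9068 CPM, as were those of enteroendocrine, proliferation, and stromal and endothelial genes. The part of such cells in the value of Areg was not tested. Paneth cells carry CD24 at their surface, and a CD24-negative gate such as that on SISC is meant to leave them out. Paneth markers were still read in the gated SISC libraries, at 9068 CPM in replicate 1 and 1397 CPM in replicate 2. What the gate removed was not tested.

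Ereg encodes epiregulin, another ligand of EGFR and of ErbB4. It was read with 19 and 23 counts in SISC and 14 and 36 counts in LISC, or 1.38, 0.72, 1.30 and 1.24 CPM. The groups overlapped, and the log2 difference of 0.29 ± 0.70 did not pass (edgeR adjusted p = 0.993). Per length, Areg stood 84.7-fold and 49.0-fold above Ereg in TPM in the SISC libraries and 16.2-fold and 17.0-fold in the LISC libraries. Areg lies at chromosome 5, 91139599 to 91148432, and Ereg beside it at 91074622 to 91093646 (GRCm38, plus strand). Both have 1 annotated transcript.

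The other EGF family ligands were taken from a list of 11 genes that includes Areg and Ereg. Of the 7 tested, edgeR called 0, and 3 had an unadjusted p below 0.05 (Hbegf, Areg and Nrg4), each with a higher level in SISC, where 13.4% of all genes tested had such a p in either direction. The list had a median log2 value of -0.11. Hbegf, the gene of heparin-binding EGF-like growth factor, had the highest TPM of the list. It was read at 223 and 59.6 CPM in SISC, against 29.6 and 13.5 CPM in LISC, so that both SISC libraries stood above both LISC libraries and, as for Areg, SISC replicate 1 was highest. Its log2 difference was -2.72 ± 0.78 (edgeR adjusted p = 0.204), and DESeq2 called it (adjusted p = 0.00160). Without SISC replicate 1 it was -1.49 and without SISC replicate 2 it was -3.39, without LISC replicate 1 it was -3.38, and edgeR called none of these. Nrg4, a neuregulin that binds ErbB4, was read at 4.58 and 8.06 CPM in SISC, against 1.76 and 2.13 CPM in LISC (log2 -1.69 ± 0.51, edgeR adjusted p = 0.224). Egf itself had 16 to 134 counts per library (log2 1.64 ± 0.83, edgeR adjusted p = 0.548) and Tgfa 188 to 559 (0.56 ± 0.23, edgeR adjusted p = 0.426). Egf and Tgfa were picked with their values in view.

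None of the 3 receptor genes was called by edgeR or DESeq2, and 0 had an unadjusted p below 0.05. Egfr, the receptor of Areg and EGF, was read at 52.3 and 32.6 CPM in SISC, against 39.1 and 33.2 CPM in LISC, with overlapping groups. Its log2 difference was -0.23 ± 0.32 (edgeR adjusted p = 0.955). Erbb2, the partner receptor with no known ligand, was read at 132 and 96.0 CPM in SISC, against 165 and 101 CPM in LISC. Its groups also overlapped, and replicate 1 was the higher library in each (log2 0.23 ± 0.37, edgeR adjusted p = 0.970). Erbb3, which binds neuregulins and has a weak kinase, was read at 213 and 192 CPM in SISC, against 168 and 167 CPM in LISC. The lowest SISC library stood 1.14-fold above the highest LISC library, and the log2 difference of -0.27 ± 0.28 did not pass (edgeR adjusted p = 0.902). Erbb4 had 0 counts in all 4 libraries, where 3 counts would be 0.0937 to 0.278 CPM. That limit covers counting error only, since reads without molecular identifiers are not independent molecules.

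Per length, Erbb3 and Erbb2 made up most of the ErbB receptor transcripts. Erbb3 held 49.7% and 55.8% of their summed TPM in SISC and 41.0% and 51.0% in LISC, Erbb2 held 37.7% and 33.8% against 50.8% and 37.7%, and Egfr 12.7% and 10.4% against 8.18% and 11.3%. The shares of Egfr and Erbb3 overlapped between the groups, and that of Erbb2 was 37.7% both in its higher SISC library and in its lower LISC library. LISC replicate 1 differed from the other 3 libraries in that Erbb2 stood above Erbb3 there.

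**Figure D3:**
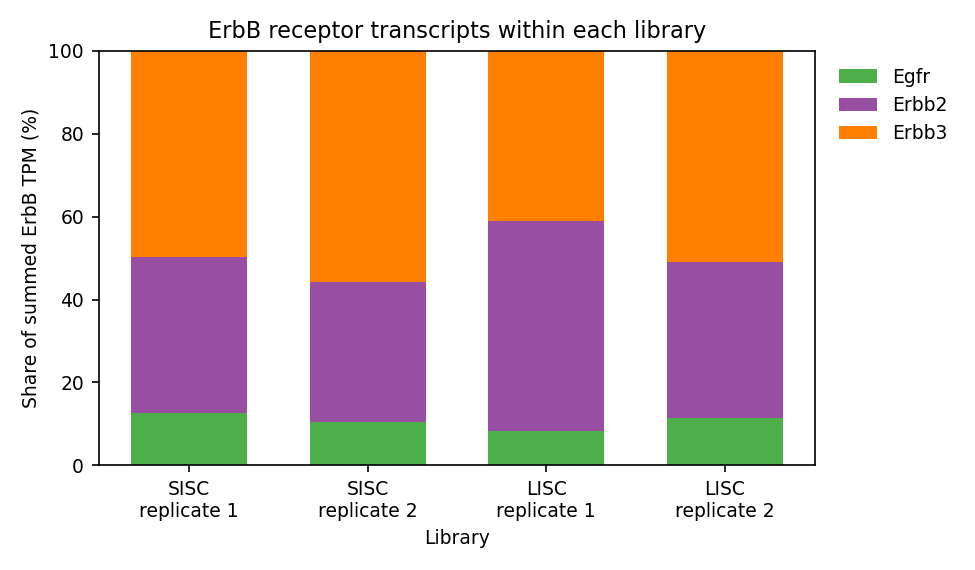
Share of the summed TPM of the ErbB receptor genes held by Egfr, Erbb2 and Erbb3 in each library (Erbb4 was at 0). Egfr holds 8.18% to 12.7% in the 4 libraries, and Erbb2 exceeds Erbb3 in LISC replicate 1.

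Egfr has transcripts of very unequal length, and its deposited gene length is an average over transcripts weighted by their estimated abundance. It was 5814 and 5509 bases in SISC and 6997 and 5427 bases in LISC. All values lie between the lengths of the full-length transcript (10208 bases, 1210 codons) and of a transcript of 2943 bases with 655 codons, which encodes a shorter protein. Other annotated transcripts of Egfr have 446 to 716 bases, so the average alone does not tell which transcripts were weighted. LISC replicate 1 had the greatest weighted length and also the lowest TPM of Egfr, at 3.59 against 6.49 to 8.07 in the other libraries. The CPM of Egfr there was the second highest. TPM in that library was also lower for Erbb3, which has 1 transcript, at 18.0 against 36.4 in LISC replicate 2. The CPM of Erbb3 was 168 and 167 in these libraries. The part of library scale and of transcript length in the TPM of Egfr was not tested. The antisense gene Egfros, which lies within Egfr on the other strand, had 0 counts throughout.

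Lrig1, a membrane protein that marks intestinal stem cells and promotes the degradation of ErbB receptors, had the highest TPM of the 10 genes in all 4 libraries. It was read at 38.8 and 56.4 TPM in SISC and 47.2 and 50.3 TPM in LISC, above 84.8% to 93.0% of all genes tested in the same library. In CPM it was 237 and 223 in SISC and 245 and 186 in LISC, so the groups overlapped (log2 -0.10 ± 0.32, edgeR adjusted p = 0.999). The direction of so small a difference turned with the unit, at 0.06 on log2(TPM + 1). The weighted length of Lrig1 was 3447 bases in LISC replicate 1 against 4483 to 4883 bases elsewhere. Within a library, the TPM of Lrig1 was 5.98 and 7.84 times that of Egfr in SISC and 13.2 and 6.24 times in LISC.

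Of 20 further genes of ligand release and receptor control, 19 were tested and edgeR called 0. Unadjusted p-values lay below 0.05 for 2 of them, Rhbdl2, a rhomboid protease gene, and Lrig3, both higher in LISC. Of all genes tested, 13.4% had such a p in either direction. DESeq2 called 0 genes of the list. The median log2 difference was 0.13. Cblc, an E3 ligase gene of the Cbl family that ubiquitinates activated receptors, was read at 34.5 and 32.5 CPM in SISC, against 32.8 and 35.2 CPM in LISC (log2 0.02 ± 0.22, edgeR adjusted p = 0.9995), and its direction turned under several settings. Erbin, which encodes a scaffold that binds ErbB2, was read at 161 and 113 CPM against 108 and 139 CPM (log2 -0.15 ± 0.33, edgeR adjusted p = 0.987).

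Of 31 adaptor and RAS-ERK genes, 29 were tested, and edgeR called 0, with 0 also at an unadjusted p below 0.05 and 0 by DESeq2. Their log2 differences were positive for 12 and negative for 17, with a median of -0.04. Mapk3, which encodes ERK1, was read at 175 and 172 CPM in SISC, against 214 and 266 CPM in LISC (log2 0.47 ± 0.30, edgeR adjusted p = 0.705). Pebp1, the gene of a RAF inhibitor, had the highest TPM of the list, at 194 and 285 CPM in SISC, against 221 and 276 CPM in LISC (log2 0.06 ± 0.36, edgeR adjusted p = 0.9995).

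Both feedback inhibitor genes had each LISC library above each SISC library, and neither was called. Spry2, a Sprouty protein that blocks signalling from receptor tyrosine kinases to RAS, was read at 11.1 and 11.8 CPM in SISC, against 18.1 and 20.9 CPM in LISC. The replicates differed by 1.06-fold and 1.16-fold, and the lowest LISC library stood 1.53-fold above the highest SISC library. The log2 difference of 0.77 ± 0.25 did not pass the test over all genes (unadjusted p = 0.0258, edgeR adjusted p = 0.253). It was 0.71 and 0.83 within replicates 1 and 2. Dusp6, a phosphatase that inactivates ERK, was read at 13.6 and 7.15 CPM in SISC, against 17.0 and 20.5 CPM in LISC. Its log2 difference was 0.86 ± 0.39 (edgeR adjusted p = 0.466), and 0.33 and 1.52 within replicates 1 and 2. Without SISC replicate 1 it was 1.38 and without SISC replicate 2 it was 0.44, neither of them called.

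Of 23 other feedback and target genes of ERK, 22 were tested. edgeR called 0 of them, and 5 had an unadjusted p below 0.05 (Dusp5, Egr1, Egr2, Fosl1 and Junb), all with a higher level in SISC, where 13.4% of all genes tested had such a p in either direction. The same 5 were called by DESeq2, which called 6.96% of all genes. The median log2 difference was -0.56, with 15 negative and 7 positive. Fos, which encodes an AP-1 subunit, was read at 1564 and 586 CPM in SISC, against 574 and 222 CPM in LISC. Its highest LISC library was just under its lowest SISC library, and replicate 1 was the higher library in each group (log2 -1.43 ± 0.73, edgeR adjusted p = 0.553). Leaving out 1 library at a time moved this value between -2.27 and -0.57, the latter without SISC replicate 1. Egr1, a zinc finger gene of the immediate early response, was read at 1086 and 402 CPM against 192 and 101 CPM (log2 -2.34 ± 0.66, edgeR adjusted p = 0.197). DESeq2 gave an adjusted p of 0.00140, and without SISC replicate 1 the edgeR value was -1.47. Dusp5, a nuclear phosphatase of ERK, had the most negative value of the list, at 54.2 and 13.8 CPM in SISC, against 1.39 and 2.54 CPM in LISC (log2 -4.06 ± 0.80, edgeR adjusted p = 0.0937). It was picked with its values in view. Dusp5, Egr1, Fos, Hbegf and Areg were each highest in SISC replicate 1. That library also had the highest sums of Paneth, enteroendocrine, proliferation, and stromal and endothelial markers. Like LISC replicate 1, it had a high rRNA share. The part of other cells and of the rRNA share in these values was not tested.

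Etv4 and Etv5 encode closely related ETS factors that act downstream of receptor tyrosine kinases. Etv5 was read with 39 and 97 counts in SISC and 357 and 1041 counts in LISC. These are 2.84 and 3.03 CPM in SISC, against 33.1 and 35.8 CPM in LISC. Replicates of a group differed by at most 1.08-fold, and the lowest LISC library stood 10.9-fold above the highest SISC library. The log2 difference was 3.55 ± 0.26 (unadjusted p = 4.26e-05, edgeR adjusted p = 0.0168). It was 3.54 within replicate 1 and 3.56 within replicate 2. The call held under all 12 alternatives run, with adjusted p-values of at most 0.0231 and log2 differences between 2.40, on log2(TPM + 1), and 3.60. The marker sums of goblet, tuft, immune and absorptive cells were also higher in both LISC libraries than in either SISC library. Within the absorptive list, however, edgeR called 1 gene higher in LISC and 2 higher in SISC. Of the 4 immune genes tested, log2 differences were positive for 2 and negative for 2, and edgeR called 1, C1qa, higher in LISC. All 9 goblet and deep crypt secretory genes and all 6 tuft genes tested had positive log2 differences, and edgeR called 0 of them. The part of these cells in the values of Etv5 and Etv4 was not tested.

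Etv4 was read with 75 and 144 counts in SISC and 310 and 361 counts in LISC, or 5.46 and 4.50 CPM against 28.7 and 12.4 CPM. Both LISC libraries stood above both SISC libraries, the lowest by 2.27-fold, but the LISC libraries differed from each other by 2.31-fold. The log2 difference of 2.04 ± 0.48, a ratio of 4.12, missed the threshold (unadjusted p = 0.00823, edgeR adjusted p = 0.136). It was 2.40 and 1.46 within replicates 1 and 2. DESeq2 called Etv4 (adjusted p = 0.00850, log2 2.02, where 6.96% of genes were called), as did edgeR with no filter on low counts (adjusted p = 2.62e-05, log2 2.03). Without LISC replicate 2 it was called by edgeR at a log2 difference of 2.54 (adjusted p = 0.0406), and without LISC replicate 1 it was 1.32 (adjusted p = 0.540). Over the 12 alternatives its adjusted p ran from 2.62e-05 to 0.540. Per length, Etv4 stood above Etv5 in both SISC libraries (2.88 and 2.92 TPM against 0.56 and 0.94), while in LISC the order differed between libraries (11.1 and 8.26 TPM of Etv4 against 5.51 and 12.0 of Etv5).

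Etv5 lies on the minus strand of chromosome 16, 22381309 to 22439719, with 5 annotated transcripts, and Etv4 on the minus strand of chromosome 11, 101769742 to 101785371, with 12. No other annotated gene overlaps either of them. The deposited length of Etv5 was 3773 bases in SISC replicate 1 and 3975 bases in SISC replicate 2, each exactly the length of 1 annotated transcript. In LISC it was 3963 and 3972 bases, close to the longer of these. The 39 counts of SISC replicate 1 were thus assigned to the transcript of 3773 bases (528 codons), which starts at 22436514, inside the span of the longer one (510 codons), which starts at 22439719.

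The RefSeq table of promoter windows (GRCm38.p6) held 7 of the 10 members, with 8 windows. The windows of Etv5, the called member, and of Areg, the member with the largest difference in the other direction, are shown to let the reader see what lies at their RefSeq starts. Capitals mark matches to the ETS core GGAAGT (or its complement ACTTCC on the other strand) and to the cAMP response element TGACGTCA. Both strands were searched, and the motifs do not overlap in these windows. For Etv5, chr16:22439521-22439820 (minus strand) covers the RefSeq start at 22439570, and chr16:22438319-22438618 (minus strand) that at 22438368. The first window also holds the start of the transcript of 3975 bases, at 22439719. The start of the transcript of 3773 bases, at 22436514, lies in neither window. No annotated GENCODE transcript starts at 22438368. For Areg, chr5:91139349-91139648 (plus strand) covers the start at 91139599.
Etv5 upstream start: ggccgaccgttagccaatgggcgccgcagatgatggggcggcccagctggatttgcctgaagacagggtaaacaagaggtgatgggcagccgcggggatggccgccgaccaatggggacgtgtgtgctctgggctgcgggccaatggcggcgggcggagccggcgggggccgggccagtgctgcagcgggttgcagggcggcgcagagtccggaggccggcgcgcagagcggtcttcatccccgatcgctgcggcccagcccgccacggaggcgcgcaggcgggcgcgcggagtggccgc
Etv5 downstream start: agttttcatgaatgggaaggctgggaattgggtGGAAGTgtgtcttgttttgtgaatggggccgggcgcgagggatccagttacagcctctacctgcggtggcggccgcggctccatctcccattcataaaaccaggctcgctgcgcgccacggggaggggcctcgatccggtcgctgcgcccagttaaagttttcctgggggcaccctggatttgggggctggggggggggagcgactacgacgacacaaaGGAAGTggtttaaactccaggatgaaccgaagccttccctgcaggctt
Areg start: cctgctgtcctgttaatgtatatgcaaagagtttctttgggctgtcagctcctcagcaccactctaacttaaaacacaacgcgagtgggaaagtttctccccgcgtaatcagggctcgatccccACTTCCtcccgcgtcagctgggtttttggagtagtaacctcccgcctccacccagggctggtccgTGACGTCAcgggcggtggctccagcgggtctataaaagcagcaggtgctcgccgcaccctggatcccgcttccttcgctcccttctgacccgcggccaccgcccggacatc

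The upstream Etv5 window held no match to the ETS core, and the downstream window held 2, at -217 and 2 bases from its start. Among all 32851 windows of the table, 23.8% held at least 1 match to this core. The Areg window held 1 ETS match, at -126 bases from its start, and 1 cAMP response element, at -61 bases, a motif that 1.79% of all windows held. Erbb2 had 2 ETS matches, and the windows of Dusp6, Egfr, Lrig1 and Spry2 had neither motif. The AP-1 motif TGACTCA, found in 5.20% of all windows, was in none of the 8. A match describes these letters and shows no binding.

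Genes with levels most like those of Etv5 over the 4 libraries were sought among the 8618 tested genes with a mean TPM of at least 5, by the Euclidean distance between log2 CPM values centred on their mean. The nearest were Abcb1a, a drug efflux transporter (distance 0.20), Idh1, a cytosolic isocitrate dehydrogenase (0.27), and Ugt1a6a, a glucuronosyltransferase (0.28). Abcb1a was read at 25.4 and 25.5 CPM in SISC, against 238 and 282 CPM in LISC. The nearest to Etv4 were Scarb1, a lipoprotein receptor (0.48), Fads3, of the fatty acid desaturase family (0.50), and Abcc3, an efflux transporter (0.63). Scarb1 was read at 7.79 and 7.09 CPM in SISC, against 35.03 and 24.1 CPM in LISC. The distance between Etv4 and Etv5 was 1.87. These distances rest on 4 libraries and describe them only.

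Of 24 further ETS family genes 16 were tested, and edgeR called 0. An unadjusted p below 0.05 was found for 4, where 13.4% of all genes tested had such a p. Of these, Etv6 and Etv3 had a higher level in SISC, Elk3 and Spdef a higher level in LISC. DESeq2, which called 6.96% of all genes, called Etv6 and Spdef. Spdef is also on the list of goblet and deep crypt secretory markers. The median log2 difference was -0.05. Elf3, an epithelial ETS factor gene, had the highest TPM of the list, at 659 and 518 CPM in SISC, against 308 and 328 CPM in LISC (log2 -0.89 ± 0.35, edgeR adjusted p = 0.384). Ehf, another epithelial member, was read at 224 and 248 CPM against 293 and 329 CPM (log2 0.40 ± 0.31, edgeR adjusted p = 0.797). Etv1, the third gene of the PEA3 group, had 3 to 7 counts per library and was not tested.

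Other receptor tyrosine kinases that feed the same cascade were listed with 19 genes. Of these 16 were tested and edgeR called 2, both higher in LISC, where 2.2% of all genes tested were called. An unadjusted p below 0.05 was found for 4 genes higher in LISC (Fgfr2, Ntrk2, Kit and Pdgfrb) and 1, Epha2, higher in SISC. Over all genes tested this share was 13.4% in either direction. DESeq2, which called 6.96% of all genes, called Fgfr2, Ntrk2 and Kit higher in LISC and Epha2 higher in SISC. The median log2 difference was 0.43. Ntrk2, the receptor gene of brain-derived neurotrophic factor, was 22.5-fold higher in LISC, at 0.87 and 0.78 CPM in SISC, against 21.0 and 16.2 CPM in LISC (log2 4.49 ± 0.36, edgeR adjusted p = 0.0184). On log2(TPM + 1) the difference was 1.96 (limma adjusted p = 0.0200), and on log2(TPM + 0.1) it was 3.49 and no longer called (limma adjusted p = 0.0627). Fgfr2, a receptor of fibroblast growth factors, was 4.76-fold higher in LISC, at 44.7 and 36.8 CPM in SISC, against 183 and 204 CPM in LISC (log2 2.25 ± 0.29, edgeR adjusted p = 0.0403). Its replicates lay close together, but the call was lost when any 1 of the 4 libraries was left out (edgeR adjusted p = 0.0689 to 0.140, log2 2.09 to 2.39). Ephb2, which guides cell position in the crypt, was read at 241 and 108 CPM in SISC, against 288 and 147 CPM in LISC (log2 0.32 ± 0.55, edgeR adjusted p = 0.972). Over the 6 pathway lists together, 125 genes outside the members were in the files, 107 were tested and 2 were called, 1.87% against the 2.2% of all genes.

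**Figure D4:**
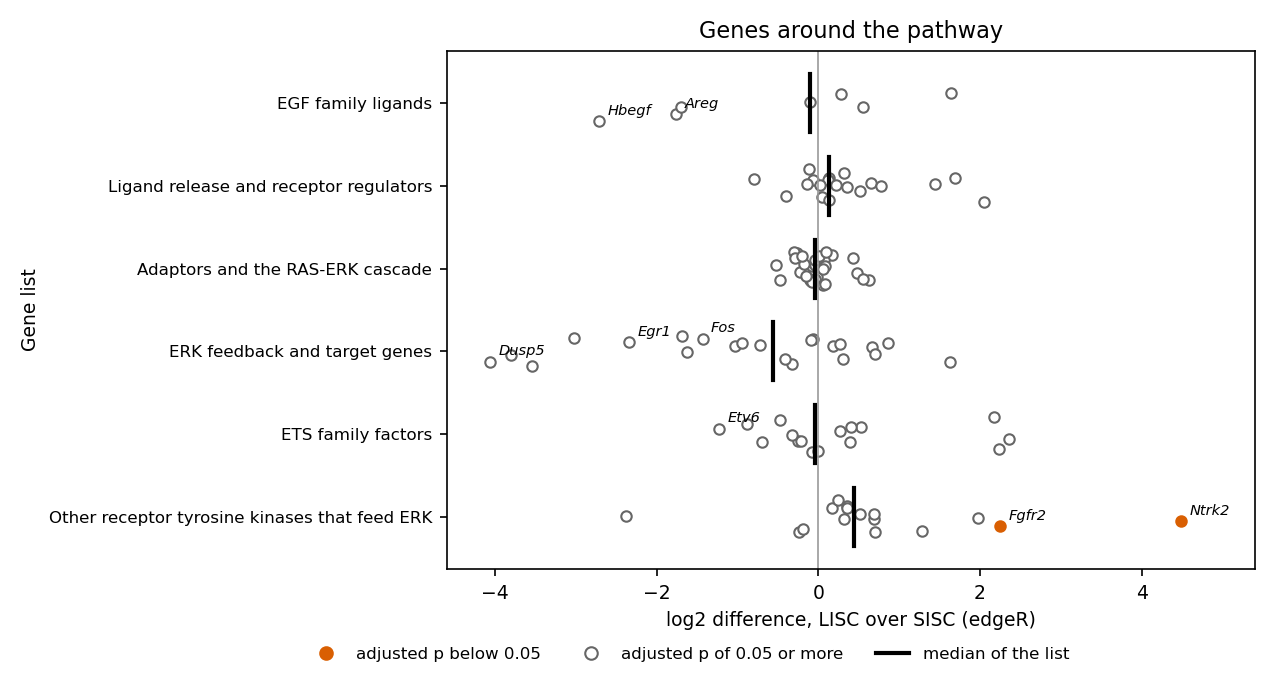
Log2 difference of LISC over SISC for each tested gene of the 6 pathway lists, with called genes filled and list medians as bars. Ntrk2 and Fgfr2 are the called genes, and the list of ERK feedback and target genes has its median at -0.56.

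In order of mean TPM, the 10 genes ran in SISC from Lrig1 (47.6 ± 12.4, SD, n = 2) through Erbb3, Erbb2, Areg, Egfr, Spry2, Dusp6, Etv4 and Etv5 to Ereg (0.23 ± 0.028). In LISC they ran from Lrig1 (48.8 ± 2.19) through Erbb3, Erbb2, Spry2, Etv4, Etv5, Dusp6, Egfr and Areg to Ereg (0.305 ± 0.134). Of the 9 pairs of neighbours in this order, 2 had overlapping ranges in SISC (Erbb2 with Areg, and Egfr with Spry2). In LISC 6 did (Erbb3 with Erbb2, and each gene from Spry2 to Egfr with the next). These ranges span libraries with unequal rRNA shares. Compared inside each library, 7 of the 9 pairs in SISC and 5 in LISC kept their order in both libraries. Dusp6 over Egfr and Egfr over Areg in LISC were among them. Within libraries, Areg moved from place 3 and 4 in SISC to place 9 in both LISC libraries, and Etv5 from place 9 to places 7 and 5.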

How the data were processed

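Libraries of poly(A) RNA were prepared with a kit that keeps strand, per the labels' protocols. The submitters' processing notes name STAR 2.7.2b, RSEM 1.2.31 and the build GRCm38 (mm10). Annotation release and strand setting: not given in the sources used here. As their output the authors deposited RSEM expected counts and TPM values per gene, with gene lengths in bases that are averages over transcripts weighted by abundance, per the file headers. Gene symbols and coordinates (1-based) come from GENCODE vM21 on GRCm38, in which 55227 of 55487 identifiers had a symbol. Groups and replicate numbers follow the sample titles.

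After rounding, expected counts entered edgeR 4.0.16 (R 4.3.3) with its quasi-likelihood test. Group was the single model term, scaling used TMM, and low genes were dropped by filterByExpr (minimum count 10). P-values were adjusted by Benjamini-Hochberg across all 14165 remaining genes, and 0.05 was the threshold. Each standard error is the log2 difference divided by the square root of F. The fit was also run on counts simulated with no replicate effect, unlike these data, and no statement here rests on that run. DESeq2 1.42.0, limma 3.58.1 on TPM, other filters and normalizations, a replicate block and leaving out each library were alternatives. 3 counts correspond to 0.0937 to 0.278 CPM. The members, lists and tests were chosen with earlier results of these data known. Named by rule were the 10 members, in each pathway list up to 3 called genes per direction and the 2 tested genes with the highest mean TPM, and the 3 genes nearest to Etv4 and to Etv5. Other genes were named after their values were seen. Shares and lengths are descriptions with no test.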

Additional observations from a re-analysis of the deposited data

How the results depend on the processing

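Genes called with the higher level in LISC numbered 206, and in SISC 105, in the reported fit. These counts were 769 and 384 in DESeq2, 942 and 465 when low counts were not filtered, 401 and 178 with a stricter filter, and 1015 and 524 with a replicate block, which called 10.9% of genes. With this block 6 genes of the ERK feedback and target list (Dusp5, Egr1, Egr2, Egr3, Fos and Junb) were called higher in SISC. So were Hbegf and Etv6 of the other pathway lists, while Kit was called higher in LISC besides Fgfr2 and Ntrk2. The values were -1.42 for Fos (log2, edgeR adjusted p = 0.0110), -2.25 for Egr1 (0.00391) and -2.52 for Hbegf (0.00333). Leaving out 1 library in turn gave 166 to 338 genes higher in LISC and 79 to 149 higher in SISC. The number of members called higher in LISC was 2 (Etv4 and Etv5) with DESeq2, with no filter, with the replicate block and without LISC replicate 2, and ran from 1 to 2 when a library was left out. The number called higher in SISC was 1 (Areg) with no filter and 0 to 1 when a library was left out. The labels do not say that a number marks a shared animal or day. Deviations from the group means correlated at 0.65 between same-numbered libraries, over genes, which are not independent replicates, and the replicate 1 libraries share the high rRNA content.

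Of 118 values of the members under alternatives, 105 kept their direction and side of the threshold, 6 passed it in addition and 7 changed sign, each for a gene with a difference below its standard error. Without SISC replicate 2 the log2 difference was -0.15 for Ereg and -0.0023 for Erbb2, without SISC replicate 1 it was 0.14 for Egfr, without LISC replicate 1 it was -0.17 for Erbb2, and without LISC replicate 2 it was 0.10 for Lrig1. On log2(TPM + 1) and log2(TPM + 0.1) Lrig1 was at 0.057 and 0.059. Ereg was below the TPM filter there and has no such value. Among other named genes Cblc was at -0.0077 with DESeq2, -0.0071 with its size factors in edgeR, -0.044 without SISC replicate 2 and -0.018 without LISC replicate 2. Ephb2 was at -0.16 without SISC replicate 2 and -0.25 without LISC replicate 1, Erbin at 0.12 without SISC replicate 1 and 0.022 without LISC replicate 1, and Pebp1 at -0.20 without SISC replicate 1 and -0.10 without LISC replicate 2. Over the fits that leave out 1 library, the log2 difference ran from -0.15 to 0.80 for Ereg, -0.55 to 0.14 for Egfr, -0.17 to 0.55 for Erbb2, -0.31 to 0.10 for Lrig1, -0.044 to 0.072 for Cblc, -0.25 to 0.995 for Ephb2, -0.40 to 0.12 for Erbin and -0.20 to 0.34 for Pebp1. The cause was not tested. The call of Ntrk2 was lost on log2(TPM + 0.1) (limma adjusted p = 0.0627, log2 3.49) and that of Fgfr2 on both TPM scales (limma adjusted p = 0.395 and 0.428). On these scales the log2 difference of Fgfr2 was 2.12 ± 0.93 and 2.19 ± 0.92, against 2.25 ± 0.29 in the reported fit. With the replicate block Fgfr2 was called (log2 2.26, edgeR adjusted p = 0.00227). With 2 libraries a group, no call rests on more than the spread of these 4 libraries. Among the members Ereg had the fewest counts, 14 to 36 per library.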
